A study of Homo sapiens with 12 samples.

Results

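The nucleolar ribosome assembly genes examined here are 36 human genes picked by name for their work in making ribosomes, and they were read from a table of 60617 genes in 12 RNA-seq libraries. They were chosen with earlier results of these data known. All 36 were in the table and reached at least 1 CPM (reads per 1000000 reads of the library) in at least 3 libraries, as did 14364 genes in all, which are the genes tested. The libraries came from NALM-6 and REH, established human B-cell lymphoblastic leukemia lines, kept for 48 h in human cerebrospinal fluid (CSF) or in RPMI with 10% fetal calf serum (media). NALM-6 in CSF, NALM-6 in media, REH in CSF and REH in media had 3 libraries each, and a library is named by line, fluid and replicate number (NALM-6 media 1). The question was how the fluid of the central nervous system changes these leukemia cells. The labels do not say whether the libraries of a group came from separate cultures, so the spread that p-values rest on is that of these libraries and may be technical.

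Ribosomes are built in the nucleolus. RNA polymerase I transcribes the precursor of ribosomal RNA there, small nucleolar ribonucleoproteins (snoRNPs) guide its methylation and pseudouridylation, and a large set of assembly factors folds, cleaves and packs it into the small and the large subunit. Growing cells spend much of their transcription on this work, and many of its genes are known targets of the MYC family of transcription factors, which bind the palindrome CACGTG, the canonical E-box.

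The 36 genes were grouped by role. The Pol I group held UBTF, POLR1A, POLR1B and POLR1C. The box C/D snoRNP group held FBL, NOP56, NOP58 and RRP9, and the box H/ACA group held DKC1, GAR1, NHP2, NOP10 and the snoRNP chaperone NOLC1. The small subunit group had 9 genes (UTP20, NOP14, WDR43, RCL1, RRP12, BYSL, TSR1, NOB1 and LYAR). The large subunit group had 11 (BOP1, PES1, WDR12, NOP2, RRS1, MRTO4, PPAN, EBNA1BP2, NIP7, NOP16 and GNL3). NPM1, NCL and DDX21 are abundant nucleolar proteins with several tasks and were kept apart.

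The starts of 31 of the 36 genes were matched by symbol in a RefSeq promoter table on GRCh38.p14, each as 250 bases before and 50 after the gene's start; the other 5 were NOP58, NOLC1, RRP12, BOP1 and RRS1. CACGTG, which reads the same on both strands, lay in the window of 12 of the 31 (38.7%), against 8.34% of 22199 windows of protein-coding genes and 7.26% of all 35116 windows. Each member was taken with a single window, whereas the background counts every window listed, whether or not its gene was tested here. The ETS core CCGGAAG, searched on both strands, was in 10 of the 31 windows (32.3%), against 12.8% of protein-coding windows, and the GC box GGGCGGG in 17 (54.8%), against 42.3%. Below are 100 bases around the start, 70 before it and 30 from it, 5′ to 3′ on the gene's strand, for the 9 genes with an E-box whole in that stretch and for NPM1 and NCL, the most abundant members, whose windows hold none. Capitals mark the E-box.
NOP14, chr4:2963377-2963476, minus strand: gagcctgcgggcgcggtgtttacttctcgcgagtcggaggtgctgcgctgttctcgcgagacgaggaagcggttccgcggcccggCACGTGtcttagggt
FBL, chr19:39846350-39846449, minus strand: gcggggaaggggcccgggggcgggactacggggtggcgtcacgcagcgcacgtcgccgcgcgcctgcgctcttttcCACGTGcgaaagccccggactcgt
RRP9, chr3:51941875-51941974, minus strand: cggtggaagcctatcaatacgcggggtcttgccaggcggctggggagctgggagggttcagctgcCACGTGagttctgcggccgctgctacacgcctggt
NOP10, chr15:34343107-34343206, minus strand: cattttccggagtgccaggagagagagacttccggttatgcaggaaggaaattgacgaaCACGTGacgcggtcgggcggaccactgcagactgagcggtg
WDR43, chr2:28894597-28894696, plus strand: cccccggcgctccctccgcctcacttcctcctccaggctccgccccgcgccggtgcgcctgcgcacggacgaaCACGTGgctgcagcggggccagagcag
UTP20, chr12:101280035-101280134, plus strand: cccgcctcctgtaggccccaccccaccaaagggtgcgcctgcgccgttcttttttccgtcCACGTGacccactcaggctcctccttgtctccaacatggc
MRTO4, chr1:19251735-19251834, plus strand: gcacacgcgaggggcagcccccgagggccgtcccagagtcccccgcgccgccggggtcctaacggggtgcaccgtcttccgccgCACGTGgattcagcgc
PES1, chr22:30591881-30591980, minus strand: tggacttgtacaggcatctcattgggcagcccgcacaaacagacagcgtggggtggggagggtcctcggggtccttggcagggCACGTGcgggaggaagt
RCL1, chr9:4792874-4792973, plus strand: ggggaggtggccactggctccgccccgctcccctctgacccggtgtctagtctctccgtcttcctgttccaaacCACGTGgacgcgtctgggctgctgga
NPM1, chr5:171387779-171387878, plus strand: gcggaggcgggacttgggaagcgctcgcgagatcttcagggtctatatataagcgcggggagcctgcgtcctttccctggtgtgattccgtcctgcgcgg
NCL, chr2:231464455-231464554, minus strand: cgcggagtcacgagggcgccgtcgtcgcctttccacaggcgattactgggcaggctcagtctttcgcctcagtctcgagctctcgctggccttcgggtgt
In these 9 genes the E-box began between position -11 (NOP10) and position 15 (NOP14), counting the first transcribed base as 0. NOP10 held another at position -170, that of BYSL ran past the end of the stretch shown, and NOP2 and EBNA1BP2 held theirs outside it. These matches describe the letters only, and no binding was measured.

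The libraries held 23412869 to 37146556 reads, and a count of 3 reads, the limit that a count of 0 allows, corresponded to 0.0808 to 0.128 CPM. All 7 B-lineage markers reached 1 CPM, VPREB1 in NALM-6 only. Of the other marker lists, TRAC alone reached 1 CPM among 5 T-cell genes (CD3D was at 0 in every library), CSF1R and LYZ among 5 monocyte genes (S100A8 and S100A9 at 0), and MBP among 5 glia and neuron genes (AQP4 and SNAP25 at 0). The T-cell sum, nearly all TRAC, was 36.2 to 41.1 CPM in NALM-6 CSF, against 5.60 to 7.14 CPM in NALM-6 media, and 74.8 to 110 CPM in REH CSF, against 21.2 to 24.1 CPM in REH media. The monocyte sum was 5.19 to 6.48 CPM in NALM-6 CSF, against 1.20 to 2.59 CPM in media, and 17.2 to 19.0 CPM in REH CSF, against 4.80 to 5.34 CPM in media. The glia and neuron sum, nearly all MBP, was 112 to 121 CPM in NALM-6 CSF, against 32.8 to 107 CPM in media, and 14.4 to 28.9 CPM in REH CSF, against 29.5 to 33.6 CPM in media. The B-lineage sum was 1828 to 1862 CPM in NALM-6 CSF, against 1988 to 2468 CPM in media, and 1368 to 1570 CPM in REH CSF, against 1670 to 1740 CPM in media. The part of these marker sums in the results below was not tested. In bulk RNA, fewer cells of a type and less RNA per cell cannot be told apart.

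Among all libraries, 2 differed from the rest of their groups, NALM-6 media 1 and REH CSF 3. Ribosomal protein genes took 22.2% of the reads of NALM-6 media 1 and 10.5% of REH CSF 3, against 5.79% to 8.61% in the others. The read-weighted mean exonic length was 4.62 kb in NALM-6 media 1 and 5.34 kb in REH CSF 3, against 5.98 to 6.34 kb in the others. The members moved in both directions in these libraries: against the mean of its replicates, NALM-6 media 1 had 18 members up and 18 down, from -2.84 (DDX21) to 1.69 (FBL) on the log2(CPM + 1) scale, and REH CSF 3 had 23 up and 13 down, from -1.15 (UTP20) to 0.92 (NOP10). Short members tended to be high and long members low, as Pearson's r between log exonic length and this shift shows: -0.57 in NALM-6 media 1 and -0.66 in REH CSF 3 over the 36 genes, which share each library, and -0.44 and -0.48 over 14287 genes. Each result is therefore given with all 12 libraries and without both of these, which leaves NALM-6 media and REH CSF with 2 libraries each.

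**Figure D1:**
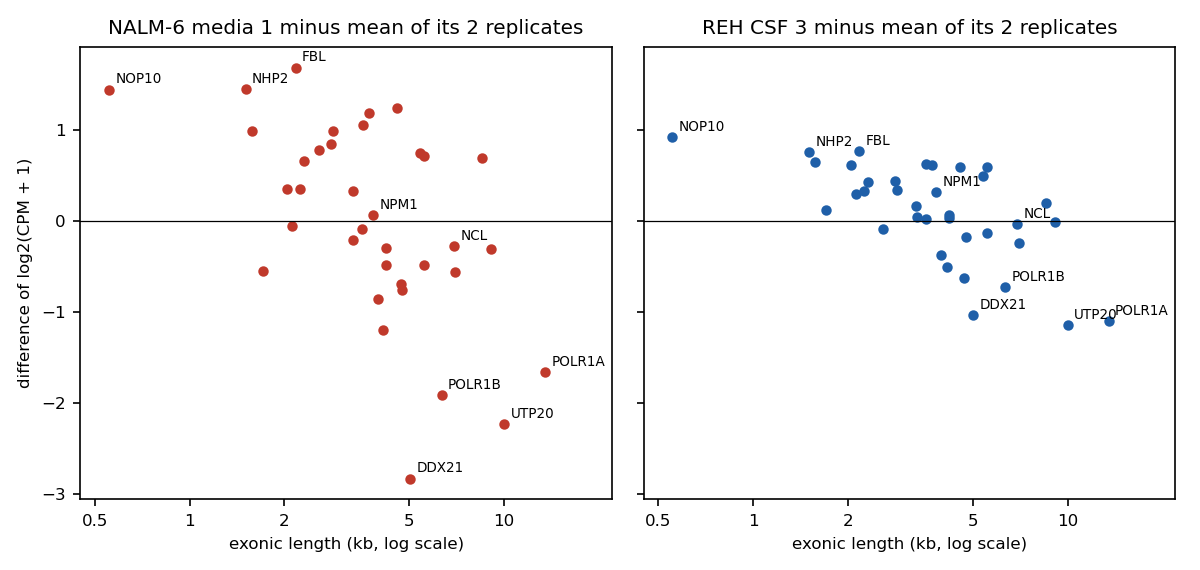
Shift of each of the 36 genes in NALM-6 media 1 (left) and REH CSF 3 (right) from the mean of the other 2 libraries of its group, in log2(CPM + 1), against exonic length in kb on a log scale. Each point is 1 gene; FBL, NOP10 and NHP2, with short exonic sequence, lie above 0, and DDX21, UTP20, POLR1A and POLR1B lie below it in both libraries.

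The 36 genes together took a smaller share of the RNA in CSF than in media in both lines. Their summed level was 7446 to 7563 CPM in NALM-6 CSF, against 9610 to 10516 CPM in NALM-6 media, and 6217 to 6863 CPM in REH CSF, against 8072 to 8316 CPM in REH media. In neither line was there overlap between CSF and media, also with NALM-6 media 1 and REH CSF 3 included. A large part of this sum is NPM1 and NCL. Their group means were 1313 and 1405 CPM in NALM-6 CSF, against 1890 and 1946 CPM in NALM-6 media. In REH they were 1430 and 1350 CPM in CSF, against 1693 and 1809 CPM in media.

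**Figure D2:**
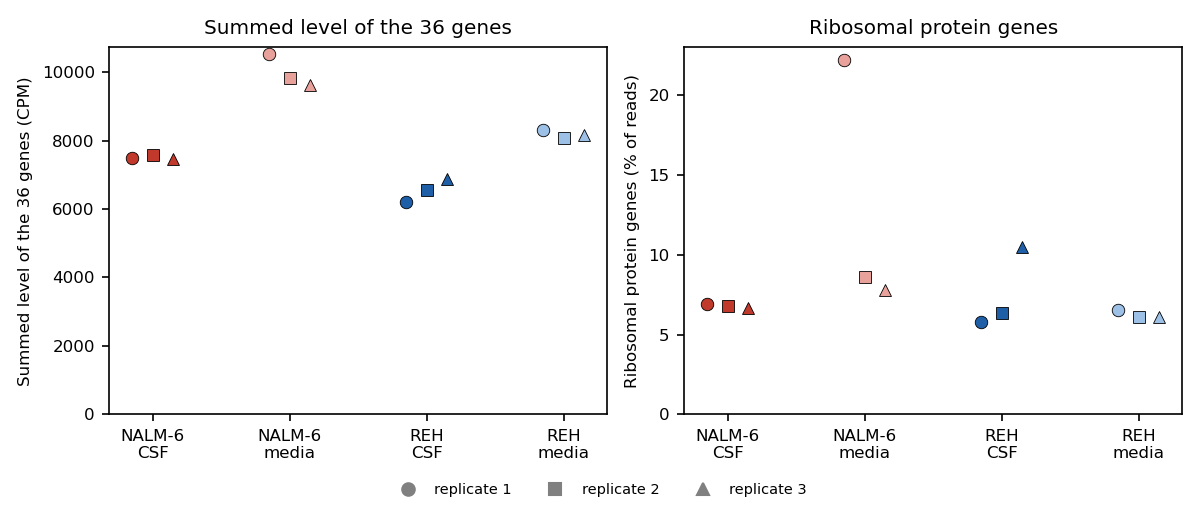
Summed level of the 36 genes in CPM (left) and share of reads from ribosomal protein genes in percent (right), 1 point per library, by group, on axes from 0. The members' sum is lower in every CSF library than in every media library of the same line, while NALM-6 media 1 and REH CSF 3 stand high in ribosomal protein reads.

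Gene by gene, few members passed the test when all libraries were used. In NALM-6, 4 of 36 were lower in CSF at an adjusted p under 0.05 (limma, Benjamini-Hochberg over all genes tested) and 0 were higher, against 1.23% lower and 10.9% higher among all genes. In REH, 5 of 36 were lower and 0 higher, against 1.71% and 13.2%. At an unadjusted p under 0.05, in either direction, there were 22 members in NALM-6, against 30.9% of all genes, and 10 of 36 in REH, against 24.7%, so the REH count lay near the share of all genes. DESeq2 called 26 members lower in NALM-6 and 10 in REH, against 11.9% and 5.90% of all genes, and edgeR 8 and 9, against 2.83% and 2.42%. In NALM-6, 23 members had all CSF libraries below all media libraries, against 10.9% of all genes, and in REH 20 had, against 14.3%. The median log2 difference of the members was -0.37 in NALM-6 and -0.26 in REH, beside 0.25 and 0.07 over all genes.

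Leaving out both libraries gave far more calls in the same direction. The fit pools the spread over the 4 groups, so a library of either line bears on the calls of both. Without NALM-6 media 1 alone, 8 members were lower in NALM-6, against 405 of 14364 genes, with a median of -0.36. Without both libraries, 28 of 36 members were lower in NALM-6 and 0 higher, against 11.0% and 29.8% of all genes, and 31 had all CSF below all media libraries, against 20.1%. In REH, 31 were lower and 0 higher, against 13.7% and 32.1%, and 33 had all CSF below all media libraries, against 19.4%. The medians were then -0.36 and -0.39, beside 0.09 over all genes in each line. Lower in both lines were 26 of 36 members, against 6.32% of all genes. These 26 are 92.9% of the 28 lower in NALM-6 and 83.9% of the 31 lower in REH. Among all genes 908 were lower in both lines, of 1581 lower in NALM-6 and 1971 lower in REH. UBTF, RCL1 and NOP2 were lower in neither. Over the 36 genes, which share libraries within a line, Pearson's r between the NALM-6 and the REH difference was 0.50 without both libraries and -0.59 with all.

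Among all genes called, the share that was higher in CSF depended on the scaling. With all libraries it was 89.8% in NALM-6 and 88.6% in REH as deposited, 75.4% and 72.8% after scaling by median of ratios, and 63.7% and 59.5% after quantile normalization. By edgeR it was 69.7% and 78.5%, and by DESeq2 49.6% and 68.7%. Median-of-ratios scaling moved the median of all genes in NALM-6 to 0.05, and quantile normalization to -0.03. Relative to the median of all genes, the members' median in NALM-6 was -0.62 as deposited, -0.69 by median of ratios and -0.43 after quantile normalization, and in REH it was -0.33, -0.35 and -0.31. The shares without both libraries were 73.0% in NALM-6 and 70.1% in REH as deposited, and 56.3% and 53.9% with median-of-ratios scaling, an alternative chosen after seeing the data.

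**Figure D3:**
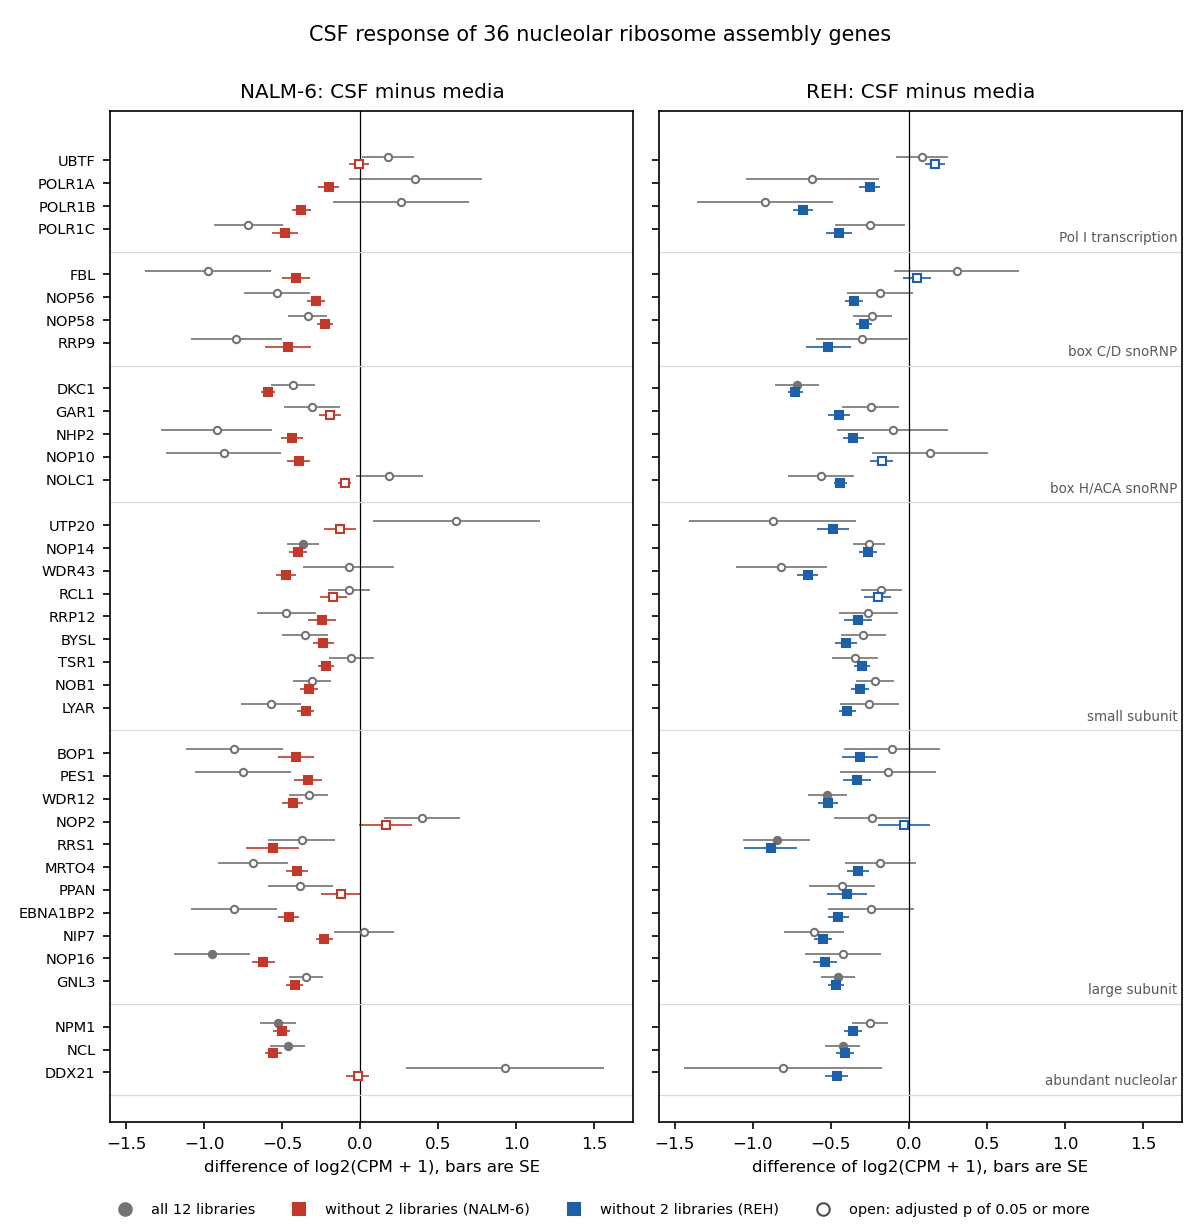
Difference of log2(CPM + 1), CSF minus media, for each of the 36 genes by role in NALM-6 (left) and REH (right), with all 12 libraries (circles) and without REH CSF 3 and NALM-6 media 1 (squares); bars are standard errors and filled symbols have an adjusted p under 0.05 (limma). Filled squares lie left of 0 for 28 genes in NALM-6 and 31 in REH, while the circles scatter more widely and few are filled. Of all genes tested, 11.0% and 13.7% were lower without these 2 libraries.

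NPM1 and NCL are the abundant nucleolar chaperones, NPM1 (chr5:171387116-171411137, GENCODE 29 on GRCh38) binding histones and ribosomal proteins and NCL (chr2:231453531-231483641) binding the nascent ribosomal RNA. Per kb of exon, NPM1 was the highest of the 36 in each group, with group means from 343 CPM per kb in NALM-6 CSF to 494 CPM per kb in NALM-6 media, and NCL had 195 to 281 CPM per kb. NPM1 had 1297, 1360 and 1284 CPM in NALM-6 CSF replicates 1 to 3, against 1944, 1916 and 1810 CPM in NALM-6 media, and the groups did not overlap. It fell by 0.52 ± 0.12 (SE) on the log2 scale in NALM-6 (limma, adjusted p = 0.016), although quantile normalization gave 0.056. In REH it had 1358, 1288 and 1645 CPM in CSF, against 1779, 1605 and 1696 CPM in media. REH CSF 3, one of the libraries that stood apart, lay within the media range there, and the difference of -0.25 ± 0.12 did not pass (limma, adjusted p = 0.218); without both libraries it was -0.36 and passed. NPM1 has processed pseudogenes of near-identical sequence, so its reads may be split among copies and its level is uncertain to that extent.

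NCL fell in both lines. It had 1399, 1422 and 1395 CPM in NALM-6 CSF, against 1707, 2088 and 2044 CPM in NALM-6 media, and 1269, 1456 and 1324 CPM in REH CSF, against 1829, 1782 and 1814 CPM in REH media. Neither line's groups overlapped. The log2 difference was -0.46 ± 0.11 in NALM-6 (limma, adjusted p = 0.0228), where quantile normalization gave 0.077, and -0.42 ± 0.11 in REH (limma, adjusted p = 0.0264). DDX21, an RNA helicase of Pol I transcription and snoRNA release, had the highest difference of any member in NALM-6, 0.93 ± 0.63, which did not pass. Its levels were 513, 567 and 557 CPM in NALM-6 CSF, against 76.4, 528 and 576 CPM in NALM-6 media. Media 1 was by far the lowest of the 6, and without both libraries the difference was -0.02. In REH, DDX21 had 377, 325 and 170.1 CPM in CSF, against 458.5, 492.5 and 498 CPM in media. The REH groups did not overlap, the difference of -0.81 did not pass with all libraries, and without both it was -0.46 and passed.

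**Figure D4:**
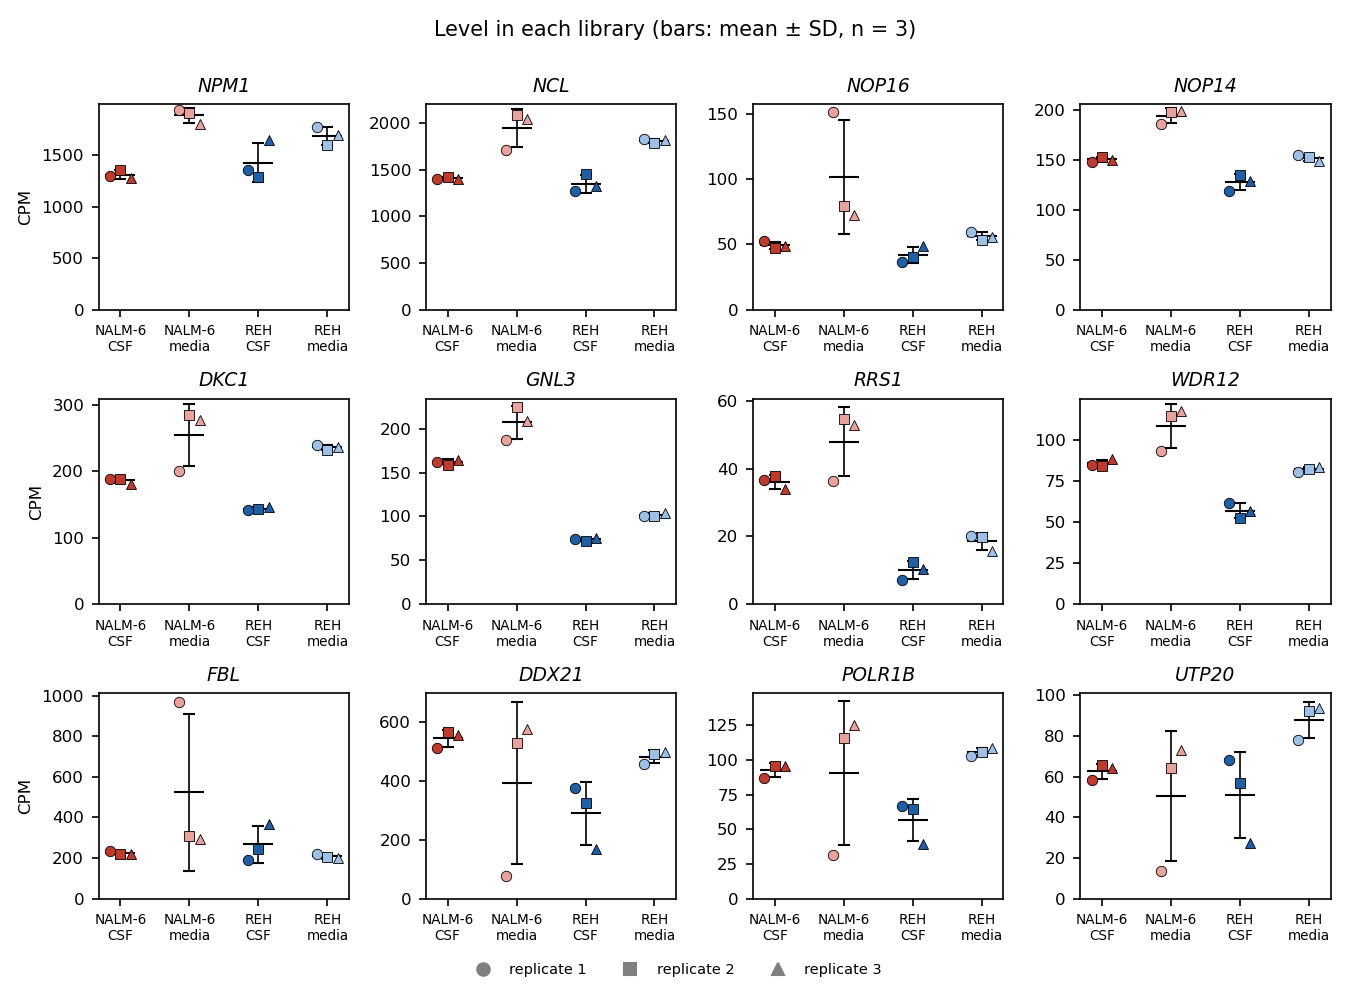
CPM of 12 of the genes in every library, by group, on axes from 0; marker shapes are replicates 1 to 3, and bars are the mean ± SD of 3 libraries. NPM1, NCL and NOP14 in NALM-6 and DKC1, GNL3 and NCL in REH separate CSF from media with little spread, whereas FBL, DDX21, POLR1B and UTP20 have NALM-6 media 1 or REH CSF 3 far from their replicates; under quantile normalization NPM1 and NCL in NALM-6 differed by 0.056 and 0.077 log2.

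Of the Pol I genes, the 3 enzyme subunits were lower in both lines without NALM-6 media 1 and REH CSF 3, and UBTF was not. POLR1A is the largest subunit, POLR1B the second largest, POLR1C a subunit that RNA polymerase III shares, and UBTF the factor that opens ribosomal DNA. With all libraries 0 of the 4 passed in either line (1 in NALM-6 and 0 in REH at an unadjusted p under 0.05), and without both 3 of 4 were lower in each. Among all genes 30.9% and 24.7% had such an unadjusted p in NALM-6 and REH, and 11.0% and 13.7% were lower without both. POLR1B (chr2:112541915-112577150) had the lowest difference of any member in REH, -0.92 ± 0.44 (limma, adjusted p = 0.227). It had 66.6, 64.8 and 39.2 CPM in REH CSF, against 103, 106 and 109 CPM in REH media, and 86.75, 95.8 and 95.7 CPM in NALM-6 CSF, against 31.3, 116 and 125 CPM in NALM-6 media. All CSF libraries lay below all media libraries in REH, whereas in NALM-6 media 1 was the lowest of the 6. Its NALM-6 difference was 0.26 with all libraries, -0.0037 by median of ratios, -0.040 after quantile normalization and -0.38 without both, and the REH difference without both was -0.68.

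POLR1A showed the same split. It had 157, 165 and 74.2 CPM in REH CSF, against 177.5, 201 and 197 CPM in REH media, and 193, 209.5 and 197 CPM in NALM-6 CSF, against 71.9, 218 and 243 CPM in NALM-6 media. The NALM-6 difference was 0.35 with all libraries and -0.20 without both, and the REH difference was -0.62 with all and -0.25 without both. POLR1C was -0.48 in NALM-6 and -0.45 in REH without both libraries. UBTF was -0.01 and 0.17 there and passed in neither line.

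The box C/D snoRNP places methyl groups on ribosomal RNA, with FBL as the methyltransferase, NOP56 and NOP58 as its scaffold and RRP9 as a protein that belongs to the U3 particle. Without both libraries all 4 were lower in NALM-6, and NOP56, NOP58 and RRP9 were lower in REH, while with all libraries 0 of 4 passed in either line (4 in NALM-6 and 0 in REH at an unadjusted p under 0.05). The shares of all genes lower without both were 11.0% and 13.7%, and 30.9% and 24.7% had such an unadjusted p. FBL (chr19:39834458-39846414) had the lowest difference of any member in NALM-6 with all libraries, -0.97 ± 0.40 (limma, adjusted p = 0.136), and the highest in REH, 0.31 ± 0.40. It had 234, 221 and 222 CPM in NALM-6 CSF, against 969.7, 307 and 295 CPM in NALM-6 media, and 189, 245 and 367 CPM in REH CSF, against 221, 203 and 199.8 CPM in REH media. Every NALM-6 CSF library was below every media library, by more against media 1, and in REH the groups overlapped. Its differences without both libraries were -0.41 in NALM-6 and 0.05 in REH. Those of NOP56 and NOP58 were -0.28 and -0.23 in NALM-6 and -0.35 and -0.29 in REH, and those of RRP9 were -0.46 in NALM-6 and -0.51 in REH.

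The box H/ACA snoRNP makes pseudouridine, and DKC1 (chrX:154762742-154777689), its pseudouridine synthase, is also part of telomerase. It had 141, 144 and 146 CPM in REH CSF, against 240.3, 233 and 237 CPM in REH media, with no overlap, and fell by 0.72 ± 0.14 on the log2 scale (limma, adjusted p = 0.00539). Of the member calls between CSF and media made with all libraries, this one alone was kept under every alternative run, with adjusted p from 2.8e-34 to 0.0444. In NALM-6, DKC1 had 189, 189 and 182 CPM in CSF, against 200.2, 285 and 277 CPM in media, and the difference of -0.43 did not pass (limma, adjusted p = 0.0759); without both libraries it was -0.59 and passed.

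NOP10, the smallest H/ACA protein, had 61.6, 65.05 and 63.2 CPM in NALM-6 CSF, against 229, 89.9 and 77.5 CPM in NALM-6 media, and 58.5, 59.7 and 113 CPM in REH CSF, against 71.25, 66.35 and 62.9 CPM in REH media. The NALM-6 groups did not overlap and the REH groups did, through REH CSF 3. Its NALM-6 difference was -0.88 with all libraries and -0.39 without both, and it passed in the second. In REH it was 0.14 and -0.17, and it passed in neither. Without both libraries NHP2 was lower in both lines (-0.44 and -0.35), and GAR1 and NOLC1 passed in REH (-0.45 and -0.44) with values of -0.19 and -0.10 in NALM-6.

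The small subunit factors act in the first cleavages of the precursor (UTP20, NOP14, WDR43, RCL1), in the maturation and export of the pre-40S particle (RRP12, BYSL, TSR1) or in its last cleavage (NOB1, the endonuclease). With all libraries 1 of the 9 was lower in NALM-6 and 0 in REH (5 and 3 at an unadjusted p under 0.05), and without both 7 and 8 were. Among all genes 1.23% and 1.71% were lower with all libraries, and 11.0% and 13.7% without both. An unadjusted p under 0.05 was held by 30.9% and 24.7% of all genes, and the REH count of 3 lay near that share. NOP14 (chr4:2937933-2963385) had 148, 154 and 150.4 CPM in NALM-6 CSF, against 186.5, 198 and 199.7 CPM in NALM-6 media, with no overlap. It fell by 0.37 ± 0.10 on the log2 scale (limma, adjusted p = 0.0468), and its REH difference of -0.26 did not pass. UTP20, a scaffold of the small subunit processome, had 58.4, 65.5 and 64.1 CPM in NALM-6 CSF, against 13.8, 64.35 and 73.2 CPM in NALM-6 media, and 68.4, 56.7 and 27.5 CPM in REH CSF, against 77.85, 92.5 and 93.8 CPM in REH media. The REH groups did not overlap, and in NALM-6 media 1 lay far below the rest. Its NALM-6 difference was 0.62 with all libraries and -0.13 without both, and its REH difference was -0.87 and -0.49, the last of which passed. WDR43 had the lowest values of the group without both libraries, -0.48 in NALM-6 and -0.65 in REH, and RCL1 passed in neither line, at -0.17 and -0.20.

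The large subunit group held 3 of the 5 calls in REH. With all libraries 1 of the 11 was lower in NALM-6 and 3 in REH, and without both 9 and 10 were. The shares of all genes were 1.23% and 1.71% with all libraries and 11.0% and 13.7% without both. NOP16 (chr5:176383938-176388975), an assembly factor of the pre-60S particle, had 52.3, 47.0 and 48.45 CPM in NALM-6 CSF, against 152, 79.5 and 72.95 CPM in NALM-6 media. The groups did not overlap, and media 1 was the highest. It fell by 0.95 ± 0.24 on the log2 scale (limma, adjusted p = 0.0294), and the difference without both libraries was -0.62. In REH it was -0.42 with all libraries, which did not pass, and -0.54 without both, which did.

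WDR12, which forms a complex with PES1 and BOP1, had 61.4, 52.6 and 56.5 CPM in REH CSF, against 80.0, 82.3 and 83.3 CPM in REH media, and fell by 0.52 ± 0.12 on the log2 scale (limma, adjusted p = 0.0165). GNL3 (chr3:52681156-52694492), the GTP-binding protein nucleostemin, had 74.8, 72.2 and 75.6 CPM in REH CSF, against 101, 101 and 104 CPM in REH media, and fell by 0.45 ± 0.11 (limma, adjusted p = 0.0177). RRS1, which helps to bring the 5S ribosomal RNA into the particle in yeast, had 7.24, 12.6 and 10.4 CPM in REH CSF, against 20.3, 19.8 and 15.8 CPM in REH media, and fell by 0.85 ± 0.21 (limma, adjusted p = 0.0213). None of these 3 overlapped between REH groups. Their NALM-6 differences, -0.33, -0.35 and -0.37, did not pass with all libraries, and without both they were -0.43, -0.42 and -0.56 and passed.

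The other large subunit genes had differences without both libraries from -0.46 (EBNA1BP2) to 0.16 (NOP2) in NALM-6 and from -0.55 (NIP7) to -0.03 (NOP2) in REH. PES1 and BOP1, the partners of WDR12, were -0.34 and -0.41 in NALM-6 and -0.33 and -0.31 in REH, and all of these passed. NOP2, an RNA methyltransferase, reached 1 CPM in 6 libraries only, with at least 0.173 CPM in each, and shares 54.4% of its exonic bases with AC006064.6 on the same strand, which was listed at 0. PPAN shares 56% with PPAN-P2RY11 and RRS1 shares 11.4% with AC009879.2, both also at 0 and on the same strand. The values of NOP2 and PPAN are therefore uncertain, and without them 28 of 34 members were lower in NALM-6 and 30 of 34 in REH when both libraries were left out. The shares of all genes were 11.0% and 13.7% there. The strand setting of the counting is not given in the sources used here, so members that share exonic bases with a gene on the opposite strand are uncertain too: NHP2 (27.4%, RMND5B), TSR1 (20.7%, SRR), NIP7 (20.2%, COG8), NOB1 (20.2%, AC092115.3), EBNA1BP2 (18.8%, CFAP57), NOP14 (17.1%, NOP14-AS1), NOP16 (12%, ARL10, and 7.9%, HIGD2A), POLR1C (7.1%, AL355802.2, and 6.3%, XPO5), RRP12 (6.1%, AL355490.2) and PES1 (5.4%, TCN2), among smaller overlaps.

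The calls made with all libraries rest on few libraries. In NALM-6 the number of members lower was 0 without CSF 1, 1 without CSF 2, 0 without CSF 3, 8 without media 1, 2 without media 2 and 7 without media 3, and it was 2 without REH media 2 or 3. Among all 14364 genes 61, 48 and 48 were lower without CSF 1, 2 and 3, and 405, 141 and 313 without media 1, 2 and 3. Without REH media 2 and 3 the numbers were 104 and 103, beside 177 with all libraries. In REH leaving out NALM-6 media 1 gave 16 members, and the number was 3 without REH CSF 1 or 2, 1 without REH media 1 or 2, and 2 without REH media 3. Among all genes 1308 were lower in REH without NALM-6 media 1, and 205 and 167 without REH CSF 1 and 2. Without REH media 1, 2 and 3 the numbers were 124, 125 and 125, beside 245 with all libraries. Whether the replicate numbers pair the libraries is not settled. With the replicate number as a block in both lines, 0 members were lower in NALM-6 and 1, DKC1, in REH (limma). Among all genes 39 and 109 were lower there.

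The test of whether REH responded otherwise than NALM-6 found 0 of 36 members with all libraries, against 4.23% of all genes (limma, either direction); 3 members had an unadjusted p under 0.05, against 17.5% of all genes. DESeq2 called 2, against 4.14% of all genes, and edgeR 0, against 0.863%. The largest of these differences of responses, REH minus NALM-6, were -1.74 ± 0.90 for DDX21, -1.49 ± 0.76 for UTP20, 1.28 ± 0.57 for FBL, -1.18 ± 0.62 for POLR1B, 1.01 ± 0.52 for NOP10 and -0.97 ± 0.60 for POLR1A. For all 6, NALM-6 media 1 or REH CSF 3 is the library farthest from its replicates in the levels given above. Without both libraries 5 of 36 members passed, against 15.3% of all genes, a share of members not above that of all genes. The difference of responses was negative for DDX21 (-0.45), NOLC1 (-0.34), NIP7 (-0.32) and POLR1B (-0.30) and positive for FBL (0.46); NOLC1 and NIP7 were named after their values were seen. NOLC1 had 384, 388 and 298 CPM in REH CSF, against 520, 525 and 527 CPM in REH media, and 554, 555 and 551 CPM in NALM-6 CSF, against 327, 594 and 592.5 CPM in NALM-6 media. NIP7 had 48.75, 46.4 and 42.0 CPM in REH CSF, against 69.4, 71.9 and 68.9 CPM in REH media, and 89.6, 89.0 and 93.7 CPM in NALM-6 CSF, against 62.4, 107 and 106 CPM in NALM-6 media. In both genes the REH groups did not overlap, and NALM-6 media 1 was the lowest NALM-6 library.

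Many of these genes were lower in REH than in NALM-6 in media alone. With all libraries 14 of 36 members were lower in REH and 0 higher, against 13.5% and 26.4% of all genes, with a median of -0.35 beside 0.26 over all genes. Without both libraries 29 were lower and 1, UTP20, higher, against 27.5% and 39.6%, with a median of -0.35 beside 0.08. The calls of RRP9, RRP12, LYAR, RRS1, EBNA1BP2 and GNL3 were kept under every alternative run, whereas the count of members lower was 8 without REH media 1 and 7 without REH media 2 or 3, NHP2 among those lost. All genes lower numbered 1552, 1520 and 1512 without REH media 1, 2 and 3. Among all genes called between the lines with all libraries, 66.2% were higher in REH as deposited, 56.0% by median of ratios and 48.0% after quantile normalization.

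RRP9 had the largest difference between the lines with all libraries, and RRS1 without both. It had 33.5, 28.9 and 29.3 CPM in REH media, against 166, 86.8 and 79.5 CPM in NALM-6 media, a difference of -1.75 ± 0.29 (limma, adjusted p = 0.000636). RRS1 had 20.3, 19.8 and 15.8 CPM in REH media, against 36.3, 54.6 and 53.1 CPM in NALM-6 media, a difference of -1.30 ± 0.21 (limma, adjusted p = 0.00054). NHP2, the core H/ACA protein, had 121, 112 and 107 CPM in REH media, against 482, 181 and 171 CPM in NALM-6 media, a difference of -1.12 ± 0.35 (limma, adjusted p = 0.0285). The lines did not overlap for any of these 3, and without both libraries the differences were -1.42, -1.49 and -0.63. UTP20 differed in the other direction, with 77.85, 92.5 and 93.8 CPM in REH media, against 13.8, 64.35 and 73.2 CPM in NALM-6 media. Its difference of 1.10 ± 0.54 did not pass (limma, adjusted p = 0.127), and without both libraries it was 0.35 and passed.

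The members were also split by the E-box in the promoter window. Without both libraries, 9 of 12 with the E-box and 15 of 19 without it were lower in NALM-6, with medians of -0.40 and -0.35. In REH 8 of 12 and 18 of 19 were lower, with medians of -0.33 and -0.41. Among all genes 11.0% were lower in NALM-6 and 13.7% in REH there, with a median of 0.09 in each line. With all libraries, 1 of 12 and 3 of 19 were lower in NALM-6, and 0 of 12 and 4 of 19 in REH. The shares of all genes were then 1.23% and 1.71%. NOP2, among the 12, and PPAN, among the 19, have uncertain values. The difference between members with and without the E-box was not tested.

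Several members also carry genes of snoRNAs, or of the related scaRNAs of the Cajal body, within their bounds. This held for 9 of the 36 (25.0%), against 1.80% of the 12027 protein-coding genes tested, with 6 such genes in GNL3, 5 in NOP56, 4 in NOP58, 3 each in NCL and WDR43, 2 each in DKC1, TSR1 and PPAN and 1, a scaRNA gene, in POLR1C. These genes themselves had few reads in these mRNA libraries, the highest mean being that of SNORD11 in NOP58.

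Other genes of the same pathway, 124 in 5 lists that leave out the members, also had more calls lower than higher without both libraries. Without both libraries 53 of 124 were lower and 13 higher in NALM-6, with a median of -0.14, and 61 were lower and 11 higher in REH, with a median of -0.20. Among all genes 11.0% were lower and 29.8% higher in NALM-6 there, and 13.7% and 32.1% in REH. With all libraries 7 were lower and 2 higher in NALM-6, and 4 were lower and 1 higher in REH, against 1.23% and 10.9% of all genes in NALM-6 and 1.71% and 13.2% in REH. Among 39 other small subunit factors 24 were lower in NALM-6 and 25 in REH without both, and among 47 large subunit factors 18 and 21 were. The 12 other Pol I genes had 2 and 6 lower, the 12 snoRNP assembly genes 4 and 5, and the 14 snoRNA host genes 5 and 4, with 2, 1 and 4 higher in NALM-6 and 2, 2 and 3 higher in REH. The 16.7% of other Pol I genes lower in NALM-6 and the 28.6% of snoRNA host genes higher there lay near the shares of all genes.

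**Figure D5:**
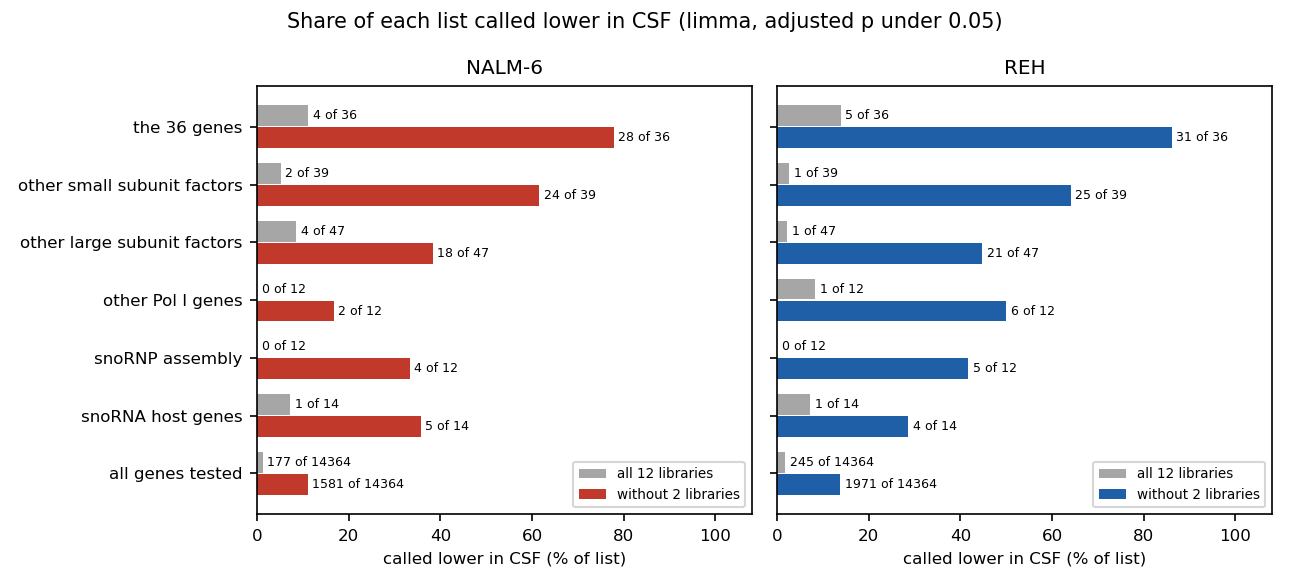
Percent of each gene list called lower in CSF (limma, adjusted p under 0.05) in NALM-6 (left) and REH (right), with all 12 libraries (grey) and without REH CSF 3 and NALM-6 media 1 (colour); each bar is labelled with its count. The 36 genes have 28 and 31 called without both libraries, the other small subunit factors 24 and 25 of 39, and all genes tested 1581 and 1971 of 14364.

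Few of these others passed with all libraries, and of the 13 calls named here 12 were lost under at least 1 alternative run (limma, edgeR or DESeq2), SNHG3 in REH being kept. In both lines UTP18, a small subunit processome protein, fell, with 71.6, 73.9 and 72.9 CPM in NALM-6 CSF, against 99.7, 96.6 and 95.5 CPM in media, and 74.3, 75.6 and 89.2 CPM in REH CSF, against 107, 102 and 105 CPM in media. So did RSL1D1, a nucleolar protein of the large subunit list, by 0.46 in NALM-6 and 0.41 in REH. SNHG3, a host of snoRNAs, had the largest change of the pathway in both lines, with 59.7, 40.9 and 53.4 CPM in NALM-6 CSF, against 191.9, 125.5 and 108.4 CPM in media, and 44.8, 46.3 and 75.4 CPM in REH CSF, against 123.7, 123.1 and 118.4 CPM in media. Its differences were -1.42 ± 0.25 (limma, adjusted p = 0.0049) and -1.16 ± 0.25 (limma, adjusted p = 0.0102), with no overlap in either line, and it shares 5.9% of its exonic bases with RCC1. In NALM-6 and not in REH DDX54 (-0.66), NOL10 (-0.50) and PWP1 (-0.45) passed as lower and TTF1, the Pol I terminator (0.52), and the snoRNA host SNHG32 (0.93) as higher. In REH and not in NALM-6 TAF1D, a subunit of the Pol I factor SL1, passed as lower (-0.43) and ZNHIT3, a snoRNP assembly factor, as higher (0.62). The test of the difference of responses called 0 genes of these 5 lists with all libraries (limma; 5 of 124 genes had an unadjusted p under 0.05, against 17.5% of all genes). SNHG32 shares 23.2% of its exonic bases with AL671762.1, and ZNHIT3 shares 15.6% of its exonic bases with MYO19 on the opposite strand.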

How the data were processed

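RNA was extracted with a column kit and made into stranded mRNA libraries, per the labels' protocols. Reads were handled with FastQC, Trimmomatic 0.33, HISAT2 2.1.0, featureCounts and edgeR on GRCh38, per the submitters' processing notes; of the annotation release and the strand setting, the sources used here give nothing. The deposited values are CPM as the authors computed them, and 100% of them came out as whole reads to within 1e-06, which gave the counts per gene and the depth. Gene coordinates and lengths came from GENCODE 29, which held 58542 of the 60617 IDs.

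The genes tested had 1 CPM or more in 3 or more libraries, and log2(CPM + 1) was fitted with limma 3.58.1 (R 4.3.3, 4 group means, trended variance, Benjamini-Hochberg over 14364 genes); fold changes on this scale understate those of low genes. The contrasts were CSF minus media in each line, the difference of these responses, and REH minus NALM-6 in media. On recovered whole reads edgeR 4.0.16 and DESeq2 1.42.0 were alternatives. Of the members, edgeR called 8 lower in NALM-6 and 9 in REH, against 2.83% and 2.42% of all genes. Other alternatives were other pseudocounts, filters and scalings, array weights computed gene by gene, each line alone, a replicate block, and libraries left out. The main limma fit was tested on simulated libraries with the same dispersion for every gene and no library standing apart. That test therefore does not cover libraries such as NALM-6 media 1 and REH CSF 3. Same-numbered NALM-6 libraries deviated together from their group means (Pearson's r 0.356, 0.193 and 0.171). So did CSF 2 with media 3 (0.233) and CSF 3 with media 2 (0.156). For the same numbers in REH r was -0.462, 0.236 and -0.319. These values do not settle whether the numbers are pairs, and the block, run in both lines, was an alternative. No 2 libraries of a group agreed within sampling noise.

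The members and gene lists were chosen with earlier results of these data known. Values in every library are given for the members called between CSF and media, those with the highest and lowest difference, the 6 with the largest difference of responses and the 4 with the largest difference between lines; of the other lists, up to 3 called genes each. The ± values of log2 differences are limma standard errors and rest on the spread between libraries. Floors cover counting error only.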

Additional observations from a re-analysis of the deposited data

Results flagged for a closer look

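The response to CSF, REH minus NALM-6, differed between the lines for 5 of the 36 genes when NALM-6 media 1 and REH CSF 3 were left out, by the test of that difference itself (limma, adjusted p under 0.05 over all genes). Among all genes 15.3% passed there, so the share of the members was not above that of all genes. The difference of log2 responses was -0.45 for DDX21 (adjusted p = 0.0134, 0.00996 to 0.534 over the alternatives run), -0.34 for NOLC1 (0.0024, 0.0024 to 0.467), -0.32 for NIP7 (0.017, 0.00389 to 0.476), -0.30 for POLR1B (0.0384, 0.0302 to 0.534) and 0.46 for FBL (0.0297, 0.00194 to 0.523). With all libraries 0 of the 36 passed. The part of these 2 libraries in the differences seen with all of them was not tested beyond leaving them out.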

How the results depend on the processing

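NOP2 had the lowest level of these genes, and the exonic bases it shares with AC006064.6 leave that level uncertain. The precision of every call is limited by 3 libraries a group, or 2 where NALM-6 media 1 and REH CSF 3 were left out. Alternatives with edgeR or with median-of-ratios scaling without both libraries were chosen after seeing the data, and the other alternatives were planned. The cause of the changes below was not tested. The median difference of the members stayed below 0 in both lines when any 1 library was left out, from -0.40 to -0.36 in NALM-6 and from -0.39 to -0.22 in REH. Pseudocounts of 0.25 and 5 moved no result across its threshold.

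Members lower in NALM-6 numbered 4 with all libraries, 1 with no filter, 9 with median-of-ratios scaling, 29 with array weights, 0 with each line alone, 8 with edgeR, 26 with DESeq2 (against 11.9% of all genes), 28 without both libraries, 31 without both by edgeR or with median-of-ratios scaling, and 0 to 8 with 1 library left out. Among all 14364 genes 177 were lower in NALM-6, 364 with median-of-ratios scaling, 2064 with array weights, 20 with the line alone and 407 by edgeR. Without both libraries 1581 were lower, 2358 by edgeR and 2501 with median-of-ratios scaling. With no filter 127 of 30355 were lower, and with 1 library left out 48 to 405 of 14364. In REH they numbered 5, 9 with median-of-ratios scaling, each line alone or edgeR, 28 with array weights (1 higher), 10 with DESeq2 (against 5.90%), 31 without both and 33 without both by edgeR or median-of-ratios scaling, and 1 to 16 with 1 library left out. For the difference of responses the members lower numbered 0, 5 with array weights (3 higher), 2 with DESeq2 (against 4.14%), 4 without both under all 3 methods (1 higher), and 0 to 0 with 1 library left out. Among all genes 1949 were lower and 2069 higher with array weights. Without both libraries 1054 were lower and 1144 higher by limma, 934 and 537 by edgeR, and 1112 and 1050 with median-of-ratios scaling. Between the lines they numbered 14, 27 with array weights (1 higher), 22 with edgeR, 26 with DESeq2, 29 without both, 30 by edgeR and 29 with median-of-ratios scaling (1 higher in each), and 7 to 16 with 1 library left out (0 to 1 higher).

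All genes called in NALM-6 numbered 1742, 1118 with quantile normalization, 7180 with array weights, 523 with the line alone, 3381 with DESeq2, 5865 without both, 5793 by edgeR and 5722 with median-of-ratios scaling without both, and 865 to 2531 with 1 library left out. In REH they numbered 2144, 6561 with array weights, 6586, 6391 and 6593 in the 3 fits without both, and 1448 to 4695 with 1 left out. For the difference of responses they numbered 607, 301 with a filter at 5 CPM, 4018 with array weights, 124 with edgeR, 2198, 1471 and 2162 in the fits without both, and 411 to 995 with 1 left out. Between the lines they numbered 5726, 10369 with array weights, 9628, 9651 and 9624 without both, and 4605 to 6921 with 1 left out.

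With the replicate number as a block, members lower numbered 0 in NALM-6, 1 in REH, 0 for the difference of responses and 10 between the lines, and all genes called numbered 864, 1436, 305 and 5026. Of all genes called, 39, 109, 74 and 1678 were lower.

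Some log2 differences changed sign. In NALM-6 without both libraries, by limma, edgeR and median-of-ratios scaling, POLR1A was -0.20, -0.28 and -0.295, POLR1B -0.38, -0.46 and -0.47 (array weights -0.34), and NIP7 -0.23, -0.31 and -0.32 (array weights -0.22, DESeq2 -0.27). With 1 library left out, POLR1A ranged there from -0.20 to 0.67, POLR1B from -0.38 to 0.61 and NIP7 from -0.23 to 0.15. NOLC1 was -0.18 by edgeR and -0.19 with median-of-ratios scaling there. With quantile normalization NPM1 was 0.056 and NCL 0.077. In REH NOP10 was -0.29 by edgeR and -0.28 with median-of-ratios scaling without both. The difference of responses of UBTF was 0.235 with array weights. Between the lines without both, in the same order, POLR1A was -0.26, -0.35 and -0.34 (array weights -0.22), POLR1B -0.19, -0.27 and -0.26, NOLC1 -0.18, -0.26 and -0.26 (array weights -0.17), and DDX21 -0.19, -0.28 and -0.27. With 1 library left out these ranged from -0.26 to 0.61 for POLR1A, from -0.19 to 0.80 for POLR1B, from -0.18 to 0.25 for NOLC1 and from -0.19 to 1.26 for DDX21.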
